A study of Mus musculus with 15 samples.

Results

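The 9 genes described here, of 27907 genes counted in mouse ovaries, carry the hormonal output of granulosa cells. They were chosen by name: Cyp19a1 and Hsd17b1 for estradiol synthesis, Fshr for the receptor of follicle-stimulating hormone (FSH), Inha, Inhba and Inhbb for the subunits of inhibins and activins, Fst for follistatin, Amh for anti-Müllerian hormone and Nppc for the precursor of C-type natriuretic peptide (CNP). All 9 were found, each as 1 row of the table, and all 9 had enough reads to be tested. Whole ovaries came from 7 females homozygous for a knock-in that changes the active-site serine of Hsd17b1 to alanine (Ser143Ala), made with CRISPR/Cas9 and here called HSD17B1-KI, and from 8 wild-type (WT) females of the same breeding of heterozygous parents. The mutation is in the germ line, so every cell of a knock-in mouse carries it. All mice were 6 months of age and in estrus, and 1 stranded mRNA library was sequenced per mouse. The libraries held from 26544745 to 72362981 reads on genes, and every value below is a normalized count, the reads of a gene divided by 1 size factor per library.

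Granulosa cells line the follicle around the oocyte. Under FSH they turn androgens from theca cells into estrogens, with aromatase making estrone and HSD17B1 reducing it to estradiol, and they secrete inhibin, which holds back FSH release from the pituitary. Small growing follicles are known for anti-Müllerian hormone, whereas aromatase and the inhibin subunits Inha and Inhba rise as a follicle grows towards ovulation. The genes can thus serve as a readout of follicle stage, but no follicle counts of these ovaries were at hand. In RNA from whole ovary, fewer cells of a type and less RNA per cell cannot be told apart.

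None of the 9 genes passed the test between the genotypes, while most of them varied together from ovary to ovary. With limma-trend on log2(normalized count + 1), 46 of the 21525 genes tested had an adjusted p under 0.05, which is 0.214% of them, and 0 of the 9 were among these. None of the 9 had an unadjusted p under 0.05 in this fit either, against 2153 of all genes (10%). edgeR and DESeq2 on the recovered reads also called 0 of the 9. The HSD17B1-KI and WT values overlapped for each of the 9 genes, whereas 70 of all genes tested (0.325%) had values that did not overlap. The log2 fold changes, given throughout as HSD17B1-KI over WT, were above 0 for 8 of the 9, with a median of 0.36. Over all genes tested, 44.8% were above 0 and the median was -0.02. As most of the 9 genes varied together, the 8 are not 8 separate observations. Across the ovaries, 26 of the 36 pairs of these genes were correlated, all positively, and Amh took part in none of the 26.

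Promoter windows from RefSeq on build GRCm38.p6, each from 250 bases before to 50 bases after a transcript start, were at hand for 6 of the 9 genes, with 3 starts for Cyp19a1. Hsd17b1, Fst and Amh had no entry. They are shown for the genes that varied most between ovaries, Cyp19a1, Inhba and Nppc, in the direction of the gene and for the starts that hold the letters TATAAA on either strand, which are in capitals.
Nppc, chr1:86670524-86670823, minus strand: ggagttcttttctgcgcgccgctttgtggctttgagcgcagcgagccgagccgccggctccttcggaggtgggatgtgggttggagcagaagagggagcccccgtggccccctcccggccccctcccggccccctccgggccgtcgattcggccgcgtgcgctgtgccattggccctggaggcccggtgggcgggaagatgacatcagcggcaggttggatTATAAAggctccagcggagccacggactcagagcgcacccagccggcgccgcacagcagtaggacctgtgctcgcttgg
Cyp19a1, chr9:54228865-54229164, minus strand: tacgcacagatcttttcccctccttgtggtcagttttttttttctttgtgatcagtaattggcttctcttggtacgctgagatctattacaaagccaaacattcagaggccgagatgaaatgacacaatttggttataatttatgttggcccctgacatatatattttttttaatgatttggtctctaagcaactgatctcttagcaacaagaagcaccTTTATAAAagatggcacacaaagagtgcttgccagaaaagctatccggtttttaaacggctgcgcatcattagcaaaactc
Cyp19a1, chr9:54193694-54193993, minus strand: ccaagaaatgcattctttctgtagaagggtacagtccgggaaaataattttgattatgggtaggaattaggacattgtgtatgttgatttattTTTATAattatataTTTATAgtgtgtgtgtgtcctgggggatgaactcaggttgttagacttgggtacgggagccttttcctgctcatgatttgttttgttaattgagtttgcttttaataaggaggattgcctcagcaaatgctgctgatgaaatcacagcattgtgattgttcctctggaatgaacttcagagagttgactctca
Inhba, chr13:16011601-16011900, plus strand: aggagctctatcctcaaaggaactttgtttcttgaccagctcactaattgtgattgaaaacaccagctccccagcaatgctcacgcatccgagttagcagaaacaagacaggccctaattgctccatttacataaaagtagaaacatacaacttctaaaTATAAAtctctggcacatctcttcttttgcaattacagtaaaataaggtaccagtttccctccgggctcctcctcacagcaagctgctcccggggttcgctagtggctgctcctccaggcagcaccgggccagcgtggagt
In the windows of Nppc and of the Cyp19a1 start at chr9:54228865-54229164, TATAAA stood from 29 to 24 bases before the start. In the latter it overlapped a match on the other strand. In Inhba the match lay from 91 to 86 bases before the start, and the last Cyp19a1 window held 2 matches, both on the other strand. Of all 32851 windows in the table, 13.6% held TATAAA on either strand. The cAMP response element TGACGTCA, its shorter form TGACG, the letters AAGGTCA bound by steroidogenic factor 1 and the palindromic estrogen response element were searched for on both strands as well. None of these was found in the windows of the 6 genes, against 1.79%, 20.8%, 4.72% and 0.0700% of all windows. The short form TGACG is part of TGACGTCA. The windows of Inha, Inhbb, Fshr and the first Cyp19a1 start held none of the 5 motifs. A match is a run of letters and not a shown binding site, and the reads were counted per gene, so that they do not tell which Cyp19a1 start was used.

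Compared per kilobase of exon, the 9 genes spanned a wide range of levels. Inha was the highest in each of the 15 ovaries, with a median of 58551 normalized counts per kilobase. Hsd17b1 followed with 6348, Inhbb with 5960 and Amh with 4628, and these 3 changed places from mouse to mouse. Hsd17b1 was above Inhbb in 12 of the 15 mice, and Inhbb was above Amh in 9. Fst had rank 5 in every ovary, with a median of 1733. Below it stood Inhba with 876, Fshr with 546, Nppc with 397 and Cyp19a1 with 236. Each of these 4 changed places with others of them, since Inhba was above Fshr in 13 mice, Fshr above Nppc in 10 and Nppc above Cyp19a1 in 11. Aromatase, which makes the estrone that WT HSD17B1 reduces, was thus the lowest at the median, but its rank among the 9 ran from 6 to 9.

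**Figure D1:**
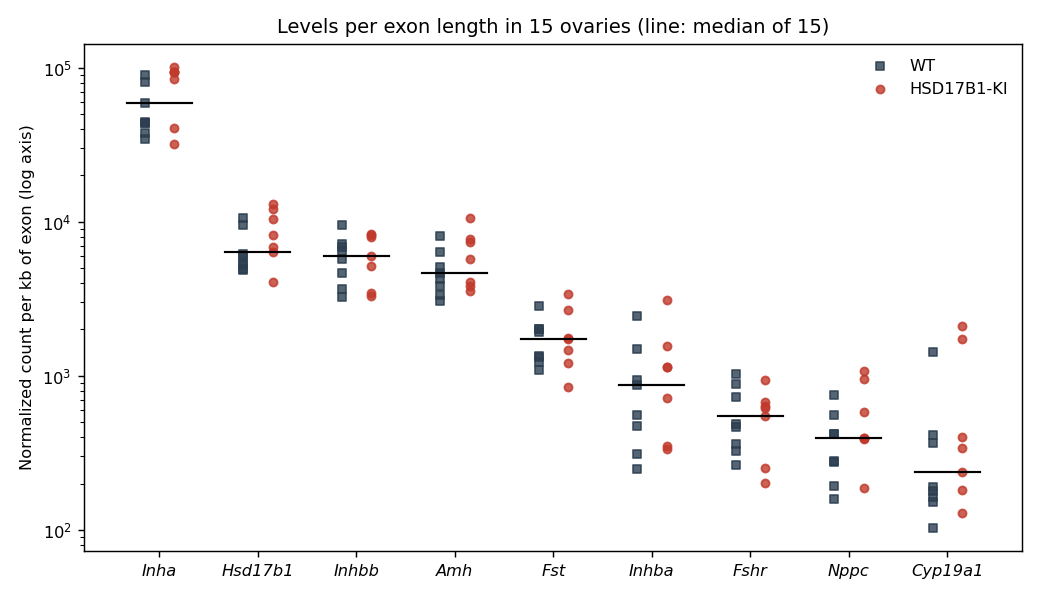
Normalized counts per kilobase of exon of the 9 genes (vertical, log axis), 1 point per ovary, with WT as squares and HSD17B1-KI as circles, and the median of the 15 as a line. Inha lies apart above all others in each ovary, Fst has rank 5 in every ovary, and the points of Cyp19a1 are spread most widely, from 103 to 2091.

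Hsd17b1 (ENSMUSG00000019301, chromosome 11 from 101078411 to 101080527, plus strand of GRCm38) is the mutated gene itself. The mutation changes 1 amino acid, so its mRNA level does not check the genotype labels. In HSD17B1-KI ovaries its lowest, median and highest values were 5459, 10914 and 17386 normalized counts. In WT they were 6480, 7672 and 14111. The ranges overlapped over most of their length, with HSD17B1-KI 6 and 7 above and HSD17B1-KI 4 below all WT mice. The log2 fold change was 0.36 ± 0.24 (SE), with a 95% interval from -0.15 to 0.88 and an adjusted p of 0.666 in limma-trend, and an exact permutation test of the mean log2 values over all 6435 splits, two-sided, gave p = 0.188. Single mice moved the log2 fold change of Hsd17b1 both ways. It was 0.53 without HSD17B1-KI 4 (exact permutation p = 0.0443, adjusted p = 0.427 in limma-trend), 0.25 without HSD17B1-KI 7 (exact p = 0.353), 0.27 without HSD17B1-KI 6 (exact p = 0.334) and 0.26 without both WT 1 and WT 8 (exact p = 0.386).

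Cyp19a1 (ENSMUSG00000032274, chromosome 9 from 54165937 to 54268110, minus strand) encodes aromatase. Its values ran from 585 over a median of 1527 to 9456 in HSD17B1-KI and from 466 over 834 to 6444 in WT. The highest ovary had 20.3 times the lowest, the widest spread of the 9 genes. HSD17B1-KI 1, HSD17B1-KI 7 and WT 4, at 7829, 9456 and 6444, stood apart from the other 12 mice, which had at most 1868. Both genotypes thus held such ovaries. Between the genotypes, the log2 fold change was 0.74 ± 0.65 (SE), with a 95% interval from -0.63 to 2.11, an adjusted p of 0.749 in limma-trend and an exact permutation p of 0.302. The interval includes changes in both directions, and the log2 fold change was 0.36 without HSD17B1-KI 7, 0.41 without HSD17B1-KI 1 and 1.10 without WT 4.

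Fshr (ENSMUSG00000032937, chromosome 17 from 88984952 to 89200675, minus strand) encodes the receptor through which FSH acts on granulosa cells. Its lowest, median and highest values were 474, 1455 and 2221 in HSD17B1-KI and 623, 1120 and 2408 in WT. HSD17B1-KI 4 and 5, at 474 and 598, were below all WT mice, and no HSD17B1-KI mouse was above all of them. Its log2 fold change was -0.05 ± 0.36 (SE), with a 95% interval from -0.81 to 0.70, an adjusted p of 0.975 in limma-trend and an exact permutation p of 0.894.

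Inha (ENSMUSG00000032968, chromosome 1 from 75507077 to 75510366, plus strand) encodes the alpha subunit that makes a dimer an inhibin instead of an activin. Values ran from 46850 over a median of 137958 to 148893 in HSD17B1-KI and from 50696 over 65121 to 131419 in WT. The 15 ovaries had no value between 86363 and 119363: HSD17B1-KI 1, 2, 3, 6 and 7 and WT 4 and 7 lay above this gap, and the other 8 below. Above all WT mice were 4 HSD17B1-KI mice, and 1, HSD17B1-KI 4, was below all. The log2 fold change was 0.47 ± 0.28 (SE), with a 95% interval from -0.12 to 1.07, an adjusted p of 0.615 in limma-trend and an exact permutation p of 0.145. Without HSD17B1-KI 4 the log2 fold change was 0.67, with an exact permutation p of 0.0336 and an adjusted p of 0.383 in limma-trend. The unadjusted limma-trend p of Inha was also under 0.05 without HSD17B1-KI 5, at 0.0455, and with array weights, which give less weight to ovaries that stand apart, at 0.0498. In the other direction, the log2 fold change was 0.39 without HSD17B1-KI 6 (exact permutation p = 0.239) or without WT 3 (exact p = 0.229).

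Inhba (ENSMUSG00000041324, chromosome 13 from 16011851 to 16031621, plus strand) encodes the beta A subunit, which forms inhibin A with Inha and activin A with itself. Its values were 2150, 7313 and 19968 at the lowest, the median and the highest in HSD17B1-KI, and 1594, 4580 and 15517 in WT. HSD17B1-KI 7 and WT 4 were the highest, and HSD17B1-KI 1 came next. Here the log2 fold change was 0.38 ± 0.53 (SE), with a 95% interval from -0.75 to 1.51, an adjusted p of 0.862 in limma-trend and an exact permutation p of 0.523. Without HSD17B1-KI 7 it was 0.085, and without WT 4 it was 0.63. Inhbb (ENSMUSG00000037035, chromosome 1 from 119415465 to 119422248, minus strand), the beta B subunit of inhibin B, varied least. It ran from 14046 over 25358 to 35419 in HSD17B1-KI and from 13848 over 25844 to 40298 in WT, where WT 7 was the highest of all. This gave a log2 fold change of 0.02 ± 0.26 (SE), with a 95% interval from -0.53 to 0.57, an adjusted p of 0.984 in limma-trend and an exact permutation p of 0.936.

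Fst (ENSMUSG00000021765, chromosome 13 from 114452290 to 114458951, minus strand) encodes follistatin, which binds activin and blocks it. Its lowest, median and highest values were 3862, 7951 and 15617 in HSD17B1-KI and 4991, 7515 and 12986 in WT. The extremes of all 15 mice were both HSD17B1-KI ovaries, numbers 4 and 7. Between HSD17B1-KI and WT, its log2 fold change was 0.05 ± 0.27 (SE), with a 95% interval from -0.52 to 0.63, an adjusted p of 0.967 in limma-trend and an exact permutation p of 0.857. In the annotation 2 genes on the opposite strand overlap Inhba and 1 overlaps Fst, and no source used here says whether the counting used strand, so that some of their reads may belong to these neighbours.

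Amh (ENSMUSG00000035262, chromosome 10 from 80805243 to 80807648, plus strand) encodes the hormone of small growing follicles that restrains their recruitment and their response to FSH. It ran from 5921 over 9595 to 17641 in HSD17B1-KI and from 5131 over 7408 to 13527 in WT. The order of the mice was unlike that of the other genes, since HSD17B1-KI 7, highest for Cyp19a1, Hsd17b1, Inhba, Fst and Nppc, had 6399 and HSD17B1-KI 1 had the most. Its log2 fold change was 0.30 ± 0.25 (SE), with a 95% interval from -0.24 to 0.83, an adjusted p of 0.740 in limma-trend and an exact permutation p of 0.296. It was 0.15 without HSD17B1-KI 1 and 0.12 without both WT 1 and WT 8. Nppc (ENSMUSG00000026241, chromosome 1 from 86666291 to 86670571, minus strand) encodes the precursor of CNP, the peptide with which mural granulosa cells keep the oocyte in meiotic arrest. Its values were 195, 414 and 1112 at the lowest, the median and the highest in HSD17B1-KI, and 165, 364 and 785 in WT. HSD17B1-KI 6 and 7 were above all WT mice. The WT mean of 398 was exceeded by 6 of the 7 HSD17B1-KI mice, but HSD17B1-KI 2, 3 and 5 lay close to it, at 406, 413 and 414. The log2 fold change was 0.53 ± 0.38 (SE), with a 95% interval from -0.28 to 1.34, an adjusted p of 0.696 in limma-trend and an exact permutation p of 0.228. Without HSD17B1-KI 7 it was 0.34, and without HSD17B1-KI 4 it was 0.76.

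**Figure D2:**
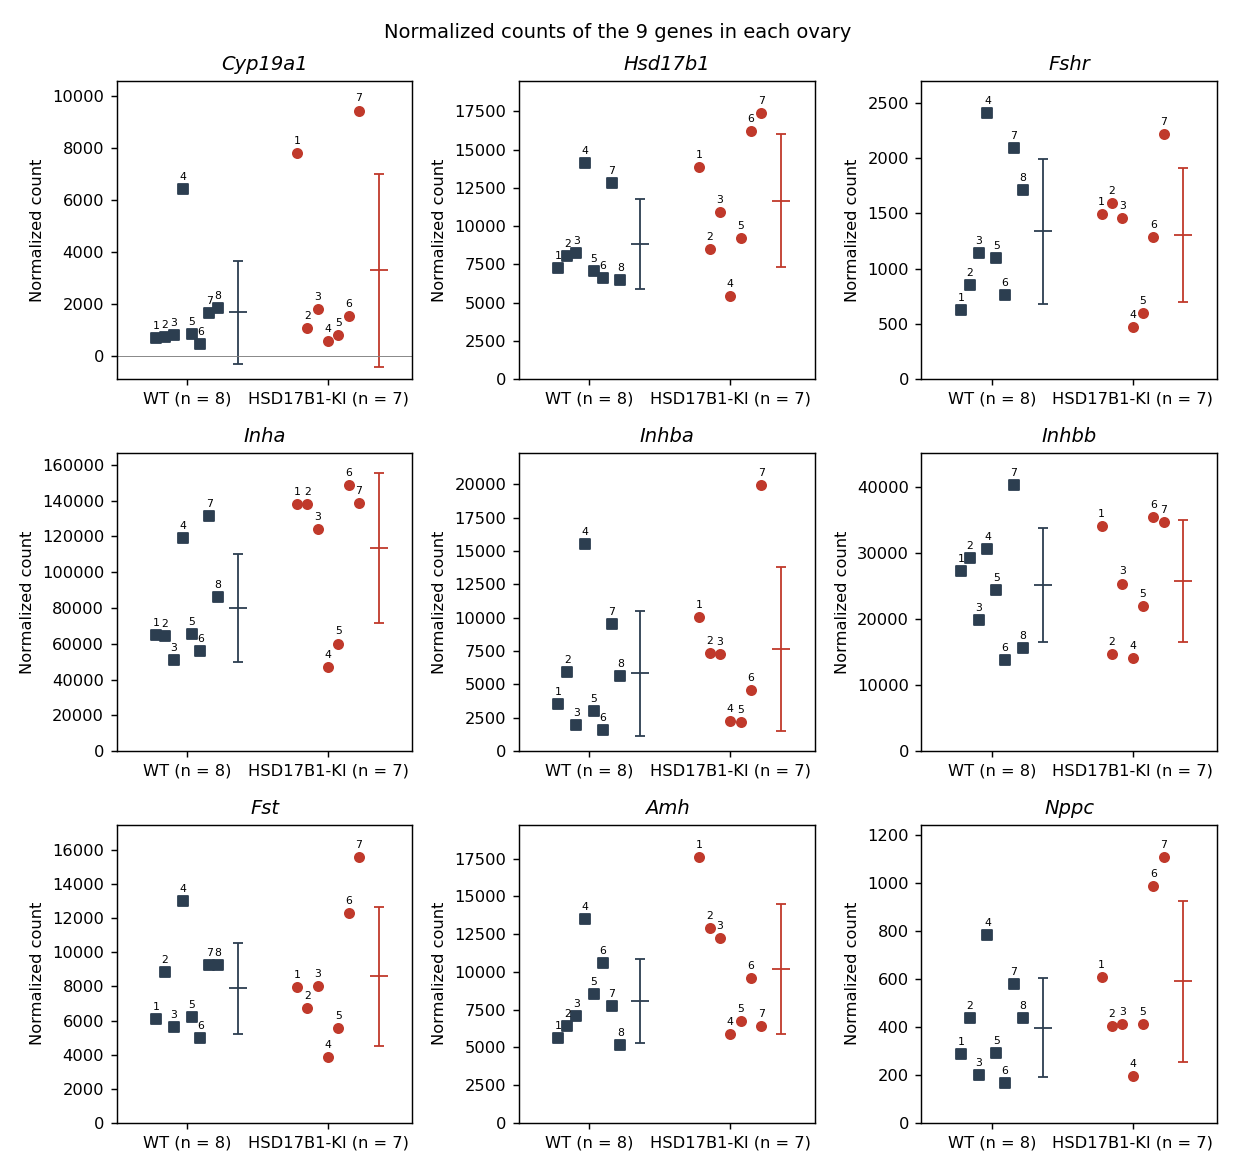
Normalized counts (vertical, linear axis) of each of the 9 genes in 8 WT (squares) and 7 HSD17B1-KI (circles) ovaries, each point numbered by mouse, with the mean and SD of the genotype beside it. The genotypes overlap in each panel, and the same mice, WT 4 and HSD17B1-KI 7, are high in most panels while HSD17B1-KI 4 is low.

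**Figure D3:**
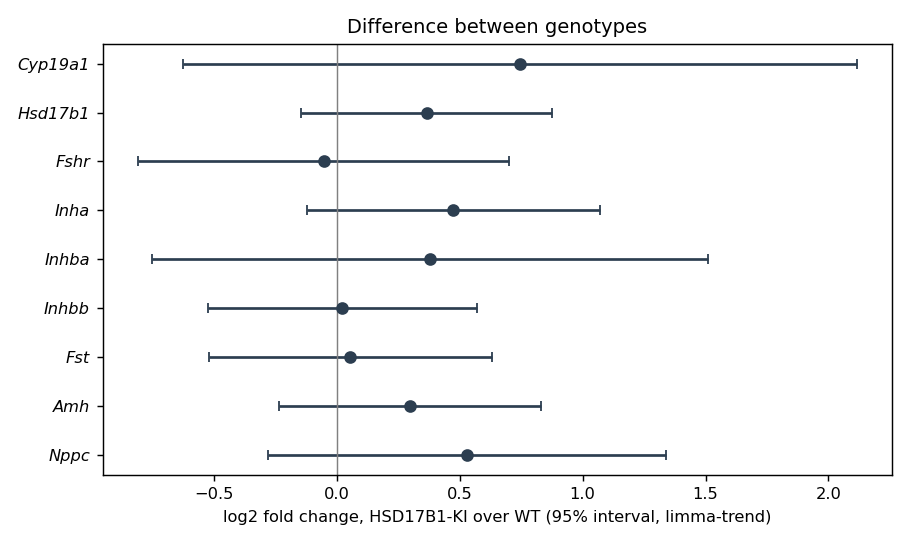
Log2 fold change of each gene (horizontal), HSD17B1-KI over WT, with its 95% interval from limma-trend. Each interval includes 0, and that of Cyp19a1, from -0.63 to 2.11, is the widest.

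A ratio of 2 genes within a mouse does not depend on the size factor of its library, so 6 ratios were compared as well. Counted per kilobase, the Cyp19a1 to Hsd17b1 ratio ran from 0.0209 in WT 6 to 0.167 in HSD17B1-KI 1, with medians of 0.0372 in HSD17B1-KI and 0.0326 in WT. Inha exceeded Inhba between 30.1-fold, in HSD17B1-KI 7, and 152-fold, in WT 6. The ratio of Inhba to Inhbb, which sets the A form of inhibin and activin against the B form, went from 0.0650 in HSD17B1-KI 5 to 0.383 in HSD17B1-KI 7. Inhbb was thus above Inhba in every ovary. Fst was between 1.09 and 4.36 times Inhba, lowest in HSD17B1-KI 7. Amh was between 0.0408 and 0.168 times Inha, also lowest in HSD17B1-KI 7, and Nppc between 0.00415 and 0.0113 times Inha. The 2 genotypes covered overlapping ranges of all 6 ratios. The differences in mean log2 ratio ranged from -0.33 for Fst to Inhba to 0.38 for Cyp19a1 to Hsd17b1, and exact permutation tests, two-sided, gave p-values from 0.386 to 0.813, each 0.813 after Benjamini-Hochberg adjustment over the 6.

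The ovaries differed in a level that most of the genes shared. Compared with the median of the 15 mice for each gene, WT 4 was above it for all 9 genes, and HSD17B1-KI 1, HSD17B1-KI 7 and WT 7 for 8 of them. HSD17B1-KI 3 and 6 were above for 7. In HSD17B1-KI 2, WT 2 and WT 8 it was 4 genes, in HSD17B1-KI 5, WT 1, WT 5 and WT 6 it was 1, and in HSD17B1-KI 4 and WT 3 it was 0. High and low ovaries were found in both genotypes.

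Pearson's r of log2 values across the ovaries had a median of 0.75 over the 36 pairs, and 26 pairs had a permutation p under 0.05 after adjustment over the 36, all of them positive. For Cyp19a1, whose values fell into 2 clusters, r was taken over the 12 mice of the lower one and the 3 high mice were left out. The highest r was that of Fst and Nppc, at 0.92 (Spearman's rho 0.89, adjusted permutation p = 0.00072 for r, n = 15). It was 0.96 within the 7 HSD17B1-KI mice, 0.97 within the 8 WT mice and 0.89 without the 2 mice farthest from the median of Fst. Follistatin and CNP, which act on different targets, were thus high and low in the same ovaries. Hsd17b1 and Nppc followed at 0.89. Inhba had r = 0.84 with Fst and 0.83 with Nppc, and Inha had 0.84 with Nppc. The r of Hsd17b1 with Inha and with Fst was 0.82 each. Inha and Inhba, the partners in inhibin A, had r = 0.83 (rho 0.77, adjusted permutation p = 0.0013). Fshr had r = 0.82 with Inhba and 0.81 with Inha. Cyp19a1 had r = 0.82 with Fshr and 0.81 with Inha over its 12 mice. The pair that makes estradiol, Cyp19a1 and Hsd17b1, had r = 0.62 (permutation p = 0.0300, adjusted p = 0.0433), but rho was 0.49 with an adjusted permutation p of 0.140. The correlation of Cyp19a1 and Hsd17b1 also missed the adjusted threshold without any 1 of 10 mice, with r from 0.56 to 0.62 and adjusted permutation p-values from 0.0540 to 0.102, whereas r was 0.89 without the 2 mice farthest from the median of Cyp19a1.

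**Figure D4:**
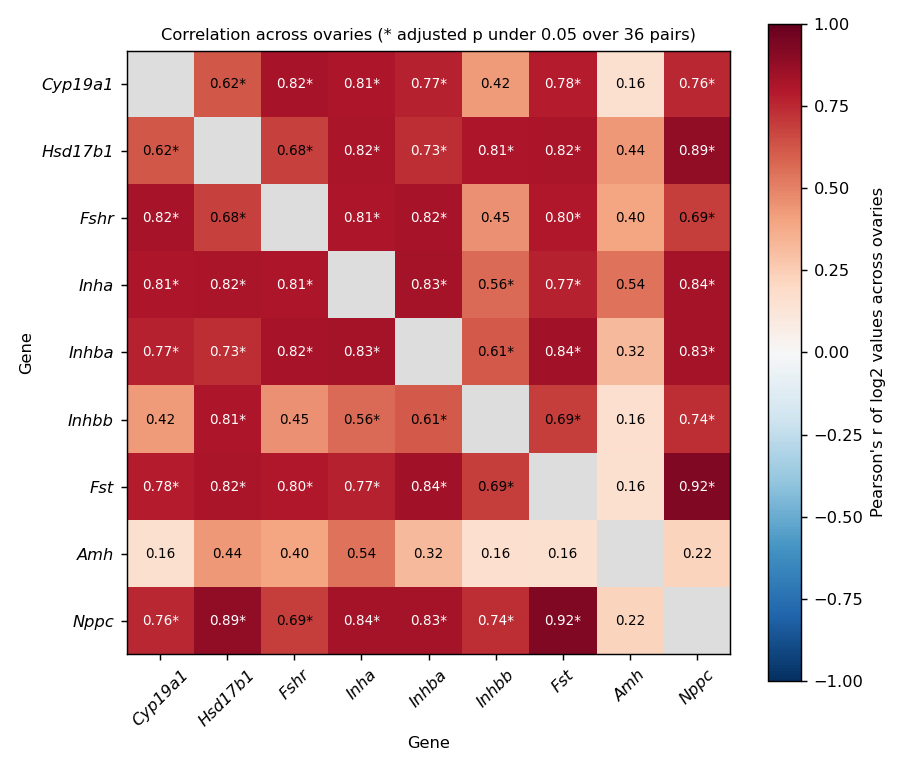
Pearson's r of log2 values across ovaries for each pair of the 9 genes (12 mice for pairs with Cyp19a1, 15 for the others), with blue for negative and red for positive values and a star for an adjusted permutation p under 0.05 over the 36 pairs. The row of Amh, from 0.16 to 0.54, holds no star, and r is highest for Fst and Nppc at 0.92.

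Inhbb and Amh were the genes that kept least to this pattern. Without Amh and Cyp19a1, the pairs of Inhbb had r between 0.45 with Fshr and 0.81 with Hsd17b1. Of the pairs of Inhbb that passed, those with Inha, Inhba and Fst fell to r = 0.42, 0.47 and 0.53 without the 2 mice farthest from the median of Inha, Inhba and Inhbb in turn, with permutation p-values of 0.150, 0.101 and 0.0629. Over all 15 mice Spearman's rho of these 3 pairs was 0.65, 0.66 and 0.72, with adjusted permutation p-values of 0.0158, 0.0151 and 0.00794. The correlation of Inha and Inhbb, at 0.56 over all mice, also fell short of the adjusted threshold without any 1 of 10 mice, with r from 0.48 to 0.57, and the correlation of Inhba and Inhbb, at 0.61, did so without HSD17B1-KI 4 (r = 0.57) or WT 6 (r = 0.53). Amh had r between 0.16 and 0.54 with the other 8 genes. The highest was that with Inha, at 0.54, with a permutation p of 0.0377 and an adjusted p of 0.0503 over the 36 pairs. In 3 pairs of Amh r was 0.16, with Cyp19a1, Inhbb and Fst. Without the 2 mice farthest from the median of Hsd17b1 and Inhba in turn, r of Amh was 0.66 with Hsd17b1 and 0.64 with Inhba. The unadjusted permutation p-values were 0.0151 and 0.0198, and these were the 2 of its 8 pairs under 0.05 when 2 mice were left out. With Nppc, r fell from 0.22 to 0.005 without the 2 mice farthest from the median of Amh. Whether r of Amh differed from that of another gene was not tested, and the count of 0 among its 8 pairs is a description. HSD17B1-KI 7 was high in most of the genes and low in Amh. Without this mouse, the correlation of Inha and Amh had r = 0.65 and the correlation of Hsd17b1 and Amh r = 0.61. Their adjusted permutation p-values were 0.0230 and 0.0299. Pairs with Cyp19a1 were left out there, so that the adjustment ran over 28 pairs instead of 36, and both the mice and the adjustment changed.

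The pairs of Inha need a further remark because of its gap. The gap was 28.0% of the range of the log2 values, short of the 40% fixed for calling clusters, so r was taken over all 15 mice. Within the 8 mice below the gap, r with Fst was 0.85 (exact permutation p = 0.00836), with Cyp19a1 0.78 (exact p = 0.0326), with Inhba 0.75 (exact p = 0.0296) and with Nppc 0.74 (exact p = 0.0277), all unadjusted. There r was 0.65 with Fshr (exact p = 0.0750), 0.24 with Inhbb (exact p = 0.582), 0.10 with Hsd17b1 (exact p = 0.825) and -0.34 with Amh (exact p = 0.402). Within the 7 mice above the gap, r ran from -0.53 with Fshr to 0.34 with Nppc, with exact p-values from 0.228 to 0.919. Splitting the mice on Inha itself, which was done after its values were seen, narrows its range, and this by itself can lower r. With Hsd17b1 r was 0.10 below and 0.24 above the gap, against 0.82 over all 15 mice. With Fst it was 0.85 and 0.05, against 0.77. How much of a pooled r came from the difference between the 2 sides was not tested.

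**Figure D5:**
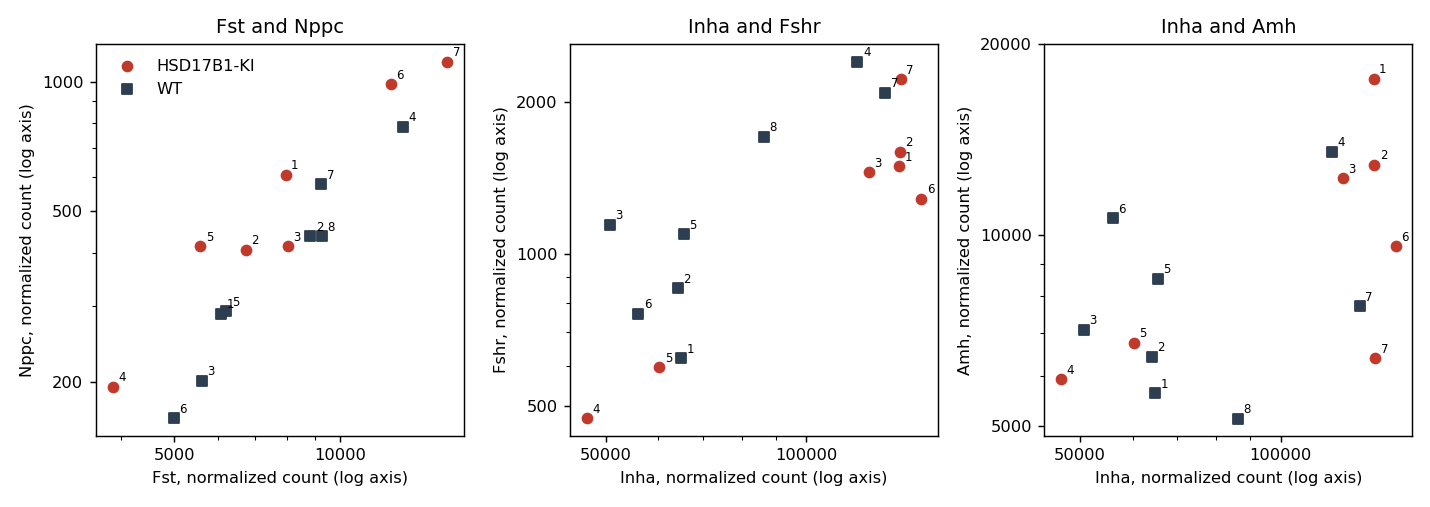
Normalized counts (log axes) of Nppc against Fst, Fshr against Inha and Amh against Inha, 1 point per ovary, numbered by mouse, with WT as squares and HSD17B1-KI as circles. Nppc rises with Fst over the whole range. Along Inha both genotypes lie on either side of a gap that is short of the rule for clusters. Above this gap Amh spans from 6399 in HSD17B1-KI 7 to 17641 in HSD17B1-KI 1.

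The correlations were also seen apart from the genotypes. On deviations from the genotype means, 26 of the 36 pairs again had an adjusted permutation p under 0.05, with a median r of 0.76. Within WT alone the median r was 0.74, and 5 of 36 pairs passed in 8 mice. Within HSD17B1-KI the median r was 0.76 and 6 of 28 pairs passed in 7 mice, where pairs with Cyp19a1 had too few mice. Sequencing depth ran from r = -0.07 with Inhbb to 0.21 with Inhba across mice, and 0 of its 9 correlations had a permutation p under 0.05 before adjustment.

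To set the 9 genes against other cells of the ovary, each was compared with Foxl2, a transcription factor of granulosa cells, Zp3 of the oocyte's zona pellucida, Lhcgr, the luteinizing hormone receptor, Ptgfr, the prostaglandin receptor of corpora lutea, Cyp17a1, the androgen-making enzyme of theca cells, and Mki67 of dividing cells. Of these 54 pairs, 0 had an adjusted permutation p under 0.05 and 12 had an unadjusted p under 0.05. The lowest adjusted p was 0.0934 for Inha and Cyp17a1, with r = 0.85 over 11 mice. On deviations from the genotype means, r of this pair was 0.66. There r of Hsd17b1 and Cyp17a1 went from 0.51 to 0.15, whereas that of Fshr and Cyp17a1 went from 0.67 to 0.82. Cyp17a1 was at most 254 in HSD17B1-KI 4, HSD17B1-KI 5, WT 3 and WT 6 and at least 2033 in the other 11, which was seen in the values, so r was taken within the 11. The same 4 ovaries also had the lowest Inha, from 46850 to 60162, against at least 64165 in the other 11. Leaving them out narrows the range of the genes, so the pairs with Cyp17a1 cannot tell how these genes go together over all mice. With Foxl2, r ran from -0.18 for Cyp19a1 to 0.66 for Inhbb. With Ptgfr it ran from -0.61 for Cyp19a1 to -0.19 for Inhbb, and with Lhcgr, which luteal cells also carry, from -0.01 for Cyp19a1 to 0.31 for Inhba. The genotypes differed in sign for most pairs with Lhcgr, where r was 0.93 within HSD17B1-KI and -0.53 within WT for Fshr. It was 0.94 and -0.14 for Inhba, 0.79 and -0.42 for Inha, but 0.30 and 0.18 for Inhbb. Whether r differed between the genotypes was not tested. For Amh r was 0.65 with Zp3 and 0.57 with Mki67, with adjusted permutation p-values of 0.162 and 0.196. Without the 2 mice farthest from the median of Amh, r was 0.31 with Zp3 and 0.63 with Mki67, and rho over all mice was 0.46 and 0.68.

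Most alike in pattern, by Pearson's r over the 15 mice among the 13856 genes whose mean reached 100 normalized counts, were different genes for most of the 9. For Inha they were Me2, a mitochondrial malic enzyme, 6330419J24Rik and Dvl2, with r from 0.95 to 0.96. Fshr was matched by Reps1, Rif1 and the protease inhibitor Serpine2, with 0.92 to 0.94. Inhba was closest to Grem1, a BMP antagonist, Mtcl1 and Colgalt2, all at 0.94. Nppc had Slc26a7, Ciart and C530008M17Rik, with 0.91 to 0.94. Nap1l5 led the lists of Hsd17b1 with 0.93, Fst with 0.92 and Inhbb with 0.84. Next came Socs2 and Dhh, the hedgehog ligand of granulosa cells, for Hsd17b1, then Plxnc1 and St3gal4 for Fst, and Gch1 and Trp53rk for Inhbb. Cyp19a1 over its 12 mice was closest to Map3k5, AI854703 and Lrch1, with 0.89 to 0.93. For Amh the closest were Ung and Rad54l, both of DNA repair, and Bex2, with 0.85 to 0.86. The share of the 13856 genes with r over 0.7 was 5.75% for Inha but 0.953% for Amh and 0.361% for Inhbb. These values are descriptions of the same ovaries, and none of the 9 genes enters them as a match.

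The genes around the 9 in their pathways were looked at in the same fit. Of the 12 listed genes of the activin and inhibin pathway, 10 had enough reads, 0 rose and 0 fell, and 3 had an unadjusted p under 0.05, with a median log2 fold change of -0.04. The most abundant were Tgfbr3, the betaglycan through which inhibin acts, at 0.51 (adjusted p = 0.378), and the signal transducers Smad3 at 0.10, Smad4 at -0.08 and Smad2 at 0.15 (limma-trend, adjusted p = 0.558 to 0.830). Inhbc and Inhbe, the other activin subunits, had under 1 normalized count on average and were not tested. Of 11 genes of the AMH and BMP pathway, 0 passed and 3 had an unadjusted p under 0.05, with a median of -0.06. Bmpr2 was at 0.10, Id3 at 0.11, Smad5 at -0.09 and Bmpr1a at -0.06. Amhr2, the receptor of AMH, stood at 7950 ± 1406 normalized counts in the 7 HSD17B1-KI ovaries and at 6296 ± 1365 in the 8 WT ovaries (mean ± SD), with a log2 fold change of 0.35 and an adjusted p of 0.408 in limma-trend.

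Of 18 genes of FSH signalling and its targets, 0 passed and 5 had an unadjusted p under 0.05, with a median of 0.06. The most abundant of the 18 were Gnas at 0.07, the protein kinase A subunits Prkar2b at 0.58 and Prkar1a at 0.17, and Lhcgr at 0.85, with adjusted p-values of 0.857, 0.339, 0.348 and 0.504 in limma-trend. Lhcgr, which FSH induces in granulosa cells and which luteal cells also carry, had the highest log2 fold change of this list. Gata4, a transcription factor of granulosa and theca cells, had a log2 fold change of 0.49, with an adjusted p of 0.197 in limma-trend and 0.0455 in DESeq2. Of 8 partners and receptors in estradiol synthesis and action, 0 passed and 0 had an unadjusted p under 0.05. Cyp1b1, which hydroxylates estradiol, was at -0.06, the electron donor Por at 0.25, the estrogen receptor Esr2 at 0.22 and Hsd17b7, another enzyme that reduces estrone, at -0.82. For Hsd17b7 the mean ± SD was 2112 ± 889 normalized counts in the HSD17B1-KI mice and 6997 ± 8738 in the WT mice, an SD above its mean, and its adjusted p was 0.717 in limma-trend and 0.167 in DESeq2. Of 13 genes of the CNP and cGMP pathway, 12 were in the table and 11 tested, 0 passed and 1 had an unadjusted p under 0.05, with a median of -0.12. Gja1, the gap junction gene, was at 0.27, Npr1 at 0.14, Furin at -0.18 and Npr2, the receptor of CNP, at -0.13, with adjusted p-values from 0.683 to 0.900 in limma-trend.

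The label of ovary was checked against marker lists. All 8 other granulosa markers and all 8 oocyte markers were detected, and in each of these lists 0 passed in limma-trend. Among the granulosa markers 2 had an unadjusted p under 0.05, namely Kitl, the ligand of KIT on the oocyte, with a log2 fold change of 0.69 (adjusted p = 0.0566 in limma-trend and 0.00143 in DESeq2), and Wt1 at -0.30 (adjusted p = 0.263 in limma-trend). The summed count of the 8 granulosa markers had a median of 182972 in HSD17B1-KI, from 95469 to 219143, and of 141321 in WT, from 105566 to 226766. Of the 5 luteal markers 0 passed, but all 5 had log2 fold changes above 0, with a median of 0.63. The highest was that of Sfrp4, at 1.51, the 1 luteal marker with an unadjusted p under 0.05 (adjusted p = 0.286 in limma-trend). The luteal sums had a median of 84785 in HSD17B1-KI, from 49268 to 139064, and of 40788 in WT, from 25279 to 133266. Of the 6 theca and interstitial markers 1 passed, Hsd3b6. DESeq2 called 2, Hsd3b6 and Insl3, a hormone of theca cells, whose log2 fold change was 1.17 (adjusted p = 0.110 in limma-trend and 0.00234 in DESeq2). The theca markers were divided, with 1.97 for Hsd3b6 and 1.88 for Cyp17a1 beside Insl3, but 0.06 for Ptch1, 0.05 for Mgarp and -0.13 for Enpep. Their median log2 fold change was 0.61, a value that none of them lay near. Cyp17a1 ran from 107 to 56551 normalized counts across the mice. The SE of its log2 fold change was 1.55, with an adjusted p of 0.734 in limma-trend and 0.360 in DESeq2. The sums of the theca markers had a median of 82869 in HSD17B1-KI, from 66624 to 93836, and of 50335 in WT, from 40540 to 93658. Of the 6 oviduct markers 0 passed, and all had log2 fold changes below 0, with a median of -0.89. Oviduct markers differed most between libraries, with sums of 833 to 21571 in HSD17B1-KI and 893 to 223081 in WT, led by Ovgp1 at 203321 in WT 1 and 127890 in WT 8. Without these 2 mice 0 of the 9 genes was called and 28 of their 36 correlations passed. Of the 5 adipose markers 0 passed, but all 5 had an unadjusted p under 0.05. Their log2 fold changes ran from -1.82 for Adipoq to 0.44 for Plin1 with a median of -1.53, and their sums from 2551 to 8493 in HSD17B1-KI and from 3142 to 11081 in WT. The part of luteal, theca, adipose, surface epithelium and smooth muscle cells in the levels of the 9 genes was not tested.

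Of the 9 periovulatory genes, which granulosa cells switch on after the luteinizing hormone surge, 0 passed and 1 had an unadjusted p under 0.05, with a median log2 fold change of -0.49. The most abundant was the protease gene Adamts1, at 4481 ± 4482 normalized counts in the 7 HSD17B1-KI mice and 7243 ± 8718 in the 8 WT mice (mean ± SD). It was followed by Pgr, the progesterone receptor, with 122 ± 44.5 and 461 ± 553. In both the WT mean came with an SD above it. Of the 6 proliferation genes 0 passed and 0 had an unadjusted p under 0.05, with a median of -0.09. Mki67 had 6863 ± 980 in HSD17B1-KI and 7714 ± 1335 in WT.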

How the data were processed

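The authors trimmed the reads with Skewer, aligned them to mm10 with STAR 2.7.3 after demultiplexing with bcl2fastq 2.20, counted them per gene and scaled the counts by 1 size factor a library. The deposited table holds this normalized signal for 27907 genes. The counting program, its use of strand and the annotation release are not given in the sources used here. Division by each library's smallest step gave whole numbers for 100% of the values (tolerance 0.1), and these recovered reads went into edgeR and DESeq2. The main test was limma-trend on log2(normalized count + 1), where genes needed a mean of 2 or more normalized counts, with genotype as its single term and two-sided p-values, adjusted over 21525 genes after Benjamini-Hochberg at 0.05. A fold change on this scale compares mean log2 values, so it can differ in size and sign from the ratio of mean counts.

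The members and lists were chosen with earlier results of these data known. Single genes and ratios were compared with exact permutation tests over 6435 splits, correlations with 100000 permutations (exact with up to 8 mice), where 1e-05 is the smallest possible p. Levels were divided by the union of exons in GENCODE M21, which held 27533 of the 27907 identifiers. A gene counted as clustered where the largest gap between neighbouring log2 values exceeded 40% of the range with at least 3 mice on each side. Cyp17a1 was set apart after its values were seen, although its gap of 33.2% fell short of this limit. Named are the 9 genes, the 3 genes most like each, genes of the lists that passed, and up to 4 genes a list by mean count. Kitl, Wt1, Gata4, Amhr2, Insl3, Inhbc and Inhbe were named beyond this rule after their values were seen. Marker lists not described above were for surface epithelium, leukocytes, endothelium, smooth muscle and erythroid cells. Of the 6 surface epithelium genes 0 passed and 1 had an unadjusted p under 0.05, and of the 4 smooth muscle genes 0 and 1. All genes of these 2 lists had log2 fold changes below 0, with medians of -0.29 and -0.35. Of the 5 leukocyte, 4 endothelium and 5 erythroid genes 0 passed and 0 had an unadjusted p under 0.05. Alternatives were other pseudocounts, filters and scalings, array weights, edgeR, DESeq2, a replicate block and leaving out each mouse, and, added after the data were seen, leaving out WT 1 and WT 8 and taking r within either side of the gap of Inha. The tests were checked on simulated data. Fits used limma 3.58.1, DESeq2 1.42.0 and edgeR 4.0.16 in R 4.3.3, and other steps SciPy 1.17.1, NumPy 2.4.6 and pandas 2.3.3 in Python 3.11.15.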

Additional observations from a re-analysis of the deposited data

How the results depend on the processing

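In all 26 alternatives 0 of the 9 genes was called. Unadjusted limma-trend p-values fell under 0.05 for Inha with array weights (0.0498), without HSD17B1-KI 5 (0.0455) and without HSD17B1-KI 4 (0.0168), and, also without HSD17B1-KI 4, for Hsd17b1 (0.0248) and Nppc (0.0486). The number of DE genes over the whole table moved from 46 to 28 with no filter, 125 with array weights and 456 with DESeq2. The DESeq2 fit took the recovered reads of 27907 genes without the filter, so that more than 1 choice changed. The number was 9 without WT 1 and WT 8, and between 6 (without HSD17B1-KI 2) and 139 (without HSD17B1-KI 5) without single mice. Under a replicate block it was 0 (limma-trend, with 1735 genes at an unadjusted p under 0.05), where WT 8, whose number has no partner, was dropped. Mice with the same number were not shown to pair, since 2 of 7 numbers had a correlation of deviations over 0.1 and 1 of 7 matched its own number best. Log2 fold changes near 0 changed sign: Fshr to 0.074 with array weights and 0.019 under the replicate block, and Inhbb to -0.087 with array weights, -0.065 under the replicate block and -0.046 without WT 1 and WT 8. Without single mice, Fshr ranged from -0.21 to 0.16, Inhbb from -0.089 to 0.15 and Fst from -0.11 to 0.22, in limma-trend and in the exact permutation test alike, the log2 ratio difference of Inha to Inhba from -0.067 to 0.32 and that of Nppc to Inha from -0.063 to 0.18. The r of Cyp19a1 and Amh was -0.51 within WT and between -0.038 and 0.44 without single mice. Without single mice, the log2 fold change ranged from 0.36 to 1.10 for Cyp19a1, from 0.25 to 0.53 for Hsd17b1, from 0.39 to 0.67 for Inha, from 0.085 to 0.63 for Inhba, from 0.15 to 0.41 for Amh and from 0.34 to 0.76 for Nppc. The number of correlated pairs was 23 to 29 of 36 without single mice, and 19, 21 and 19 of 28 without HSD17B1-KI 1, HSD17B1-KI 7 and WT 4, where pairs with Cyp19a1 were left out. It was 25 of 36 with Spearman's rho. Each library held at least 26544745 reads, and the share of counting error in the spread between mice was not tested. Whether the mice shared litters or days was not given in the sources used here.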
